A study of Mus musculus with 4 samples.

Results

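The genes described here are 32 mouse genes that are known targets of the hypoxia-inducible factors (HIFs) and act outside glycolysis. They were taken by symbol from a list of known targets, with no threshold on their values but with earlier results of these data known, and all 32 were found among the 24347 gene rows of the data. The RNA came from day 3 embryoid bodies (EBs), clumps of mouse embryonic stem cells (mESCs, strain 129/Ola) that begin to differentiate once the cytokine LIF is withdrawn, here in medium with 15% serum and with no other treatment. EBs from wild-type mESCs (WT) were compared with EBs from mESCs that lacked the promoter of *Gm11549* after CRISPR/Cas9 editing (promoter KO). Each genotype had 2 samples, numbered as in the labels, so that WT 1 and WT 2 stand against promoter KO 1 and promoter KO 2. Where a genotype is given 2 values, they are those of its samples 1 and 2 in that order. *Gm11549* encodes the transmembrane micropeptide NEMEP. The promoter KO mESCs were clonal lines, and neither the clone behind each promoter KO sample nor a shared batch was given.

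HIFs are dimers of an oxygen-labile alpha subunit and the stable partner ARNT. When oxygen is present, prolyl hydroxylases of the EGLN family mark the alpha subunit for destruction through the VHL ubiquitin ligase, and when oxygen falls the dimer binds short DNA elements and raises transcription. Besides glycolytic enzymes, its targets include genes for mitophagy, pH control, collagen processing, blood vessel growth and glycogen storage, and some of the hydroxylases that limit HIF itself.

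Of the 29 members that could be tested, 10 fell in promoter KO EBs and 0 rose (limma, Benjamini-Hochberg adjusted p under 0.05 over 11941 tested genes), where 1.89% of all tested genes were called lower and 1.68% higher. The 10 were *Egln1*, *Egln3*, *Ankrd37*, *Ndrg1*, *Ddit4*, *Adm*, *Gys1*, *Gbe1*, *Car12* and *Ero1l*, and their promoter KO means were 22.6% to 53.3% of their WT means. *Car12* passed the filter on low values only through its WT samples. The median log2 fold change was -0.89 over the 29 tested members and 0.00 over all tested genes. At an unadjusted p under 0.05, 23 members were lower and 0 higher, against 15.6% and 15% of all tested genes. By a rule of size, a fold change below 0.5 or above 2 together with that unadjusted p, 13 members were lower (1.63% of all tested genes) and 0 higher (1.4%). In 25 of the 29 members the genotypes did not overlap and the promoter KO samples were the lower ones (32.4% of all tested genes), and in 1, *Plod2*, they were the higher ones (32.9%). The adjusted p-values of the 10 members lay between 0.0208 and 0.0493, so the calls stood close to the threshold. Without WT 2 and without promoter KO 1 no member was called, although 18 were lower at an unadjusted p under 0.05 in each case, as were 8.17% and 8.73% of all tested genes, and without WT 1 only 2 were called (114 of all tested genes were called lower), while without promoter KO 2 the count was 13 (248 of all tested genes). With no filter on low genes no member was called (20 lower at an unadjusted p under 0.05, as were 10.9% of the genes then tested). Without limma's intensity trend 1 member was called lower, and 27 of all tested genes were called lower and 55 higher. Mesendoderm markers were lower in the same samples, as given with the other cell type markers at the end, and their part in these differences was not tested. In bulk samples, fewer cells of a type and less RNA per cell cannot be told apart.

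**Figure D1:**
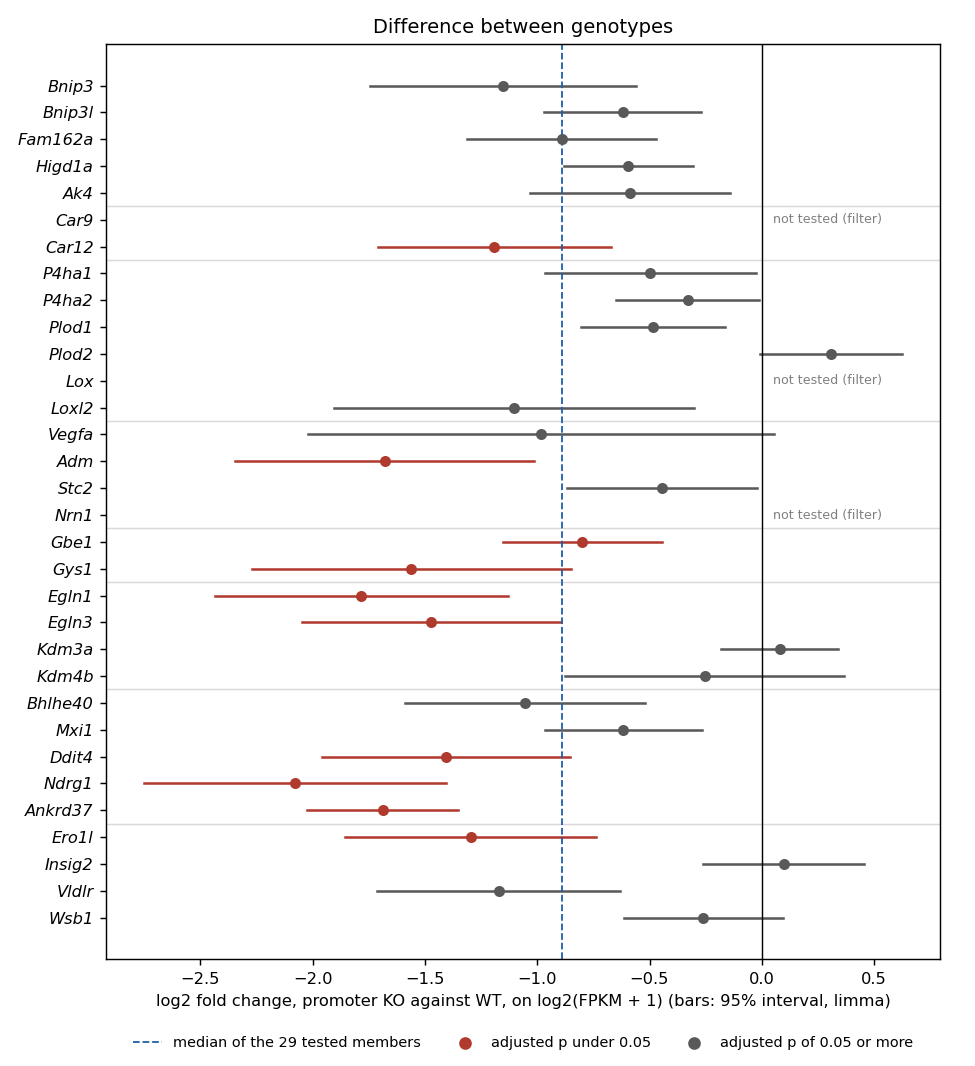
Log2 fold change of each member in promoter KO against WT EBs (horizontal axis, on log2(FPKM + 1)), with 95% intervals from limma over 2 samples of each genotype. Members are grouped by function between the grey lines, red marks the 10 members with an adjusted p under 0.05, and the dashed line marks the median of -0.89. The 10 red intervals all lie left of 0, and Plod2, Kdm3a and Insig2 have their points right of 0.

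Expression was measured as FPKM, that is, fragments counted on a transcript relative to its length and to all mapped fragments, and fold changes are differences of mean log2(FPKM + 1), which understate the change of genes with low values. A gene was tested where at least 2 of the 4 samples reached 1 FPKM. The FPKM values summed to between 673951 and 696928 per sample, and the depth estimated from them was 20200000 to 24800000 fragments if fragments had 200 bases. The estimate depends on that length, and with no length correction it was 9890000 for promoter KO 1. Spearman correlations over all genes were 0.981 between the WT samples, 0.980 between the promoter KO samples and 0.971 to 0.978 between genotypes. *Gm11549* itself was at 0.751 FPKM (WT 1), 0.522 FPKM (WT 2), 0 FPKM (promoter KO 1) and 0.0659 FPKM (promoter KO 2), too low to be tested. The labels do not say that same-genotype samples came from separate cultures. The study describes 2 biologically independent samples, without saying how they were kept separate. The p-values measure only the spread between these samples. With 2 against 2 samples, the smallest two-sided p of an exact permutation test on 1 gene is 0.333.

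Promoter sequences of the members were read from RefSeq (GRCm38.p6, 250 bases before to 50 bases after each start site), in which 24 of the 32 members matched with 36 promoters. The letters searched on both strands were ACGTG and GCGTG, the core of the HIF response element, which read CACGT and CACGC on the other strand. ACGTG can also be part of CACGTG, the E-box bound by other factors. Either core was present in 25 of the 36 member promoters (69.4%) and in 43.8% of all 32851 promoters of the same length. ACGTG was in 44.4% of the member promoters and 19.6% of all promoters, GCGTG in 58.3% and 32.4%, and CACGTG in 8.3% and 7.2%. Counted by gene and only among tested genes, 19 of 23 members (82.6%) and 69.3% of tested genes had either core in at least 1 promoter. Such a match describes the letters only, and neither binding nor a causal role was tested. The promoters of 3 members that fell, *Ankrd37*, *Egln1* and *Ddit4*, are shown with those of *Bnip3* and *Wsb1*. With each strand counted, the *Wsb1* promoter holds the most core positions of these 5, although *Wsb1* was not called. The *Bnip3* and *Wsb1* promoters also hold CACGTG, which overlaps the core and is counted on both strands, so their numbers of separate sites are lower. Capitals mark the core letters on either strand.
Ankrd37: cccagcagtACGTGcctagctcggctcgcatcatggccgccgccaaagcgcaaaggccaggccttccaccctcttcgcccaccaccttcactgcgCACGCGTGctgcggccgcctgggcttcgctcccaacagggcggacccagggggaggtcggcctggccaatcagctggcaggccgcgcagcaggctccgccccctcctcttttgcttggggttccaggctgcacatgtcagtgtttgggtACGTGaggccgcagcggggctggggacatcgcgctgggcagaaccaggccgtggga
Egln1: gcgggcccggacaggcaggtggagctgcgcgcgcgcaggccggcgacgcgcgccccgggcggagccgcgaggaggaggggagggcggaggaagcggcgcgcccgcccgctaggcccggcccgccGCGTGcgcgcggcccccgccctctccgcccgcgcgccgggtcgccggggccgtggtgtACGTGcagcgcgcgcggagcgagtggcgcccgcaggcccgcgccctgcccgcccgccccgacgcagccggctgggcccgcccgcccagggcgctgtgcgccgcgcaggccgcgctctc
Ddit4: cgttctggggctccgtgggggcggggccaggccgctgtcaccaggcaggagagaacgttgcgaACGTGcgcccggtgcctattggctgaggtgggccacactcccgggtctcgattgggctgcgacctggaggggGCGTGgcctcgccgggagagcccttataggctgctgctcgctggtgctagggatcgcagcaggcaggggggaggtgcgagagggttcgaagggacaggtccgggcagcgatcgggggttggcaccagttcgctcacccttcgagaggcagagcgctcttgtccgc
Bnip3: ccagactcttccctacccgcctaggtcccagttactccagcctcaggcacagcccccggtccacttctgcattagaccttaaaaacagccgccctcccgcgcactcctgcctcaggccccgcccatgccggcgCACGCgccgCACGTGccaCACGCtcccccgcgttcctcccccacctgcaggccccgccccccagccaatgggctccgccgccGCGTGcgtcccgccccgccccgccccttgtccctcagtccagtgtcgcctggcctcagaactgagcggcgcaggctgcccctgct
Wsb1: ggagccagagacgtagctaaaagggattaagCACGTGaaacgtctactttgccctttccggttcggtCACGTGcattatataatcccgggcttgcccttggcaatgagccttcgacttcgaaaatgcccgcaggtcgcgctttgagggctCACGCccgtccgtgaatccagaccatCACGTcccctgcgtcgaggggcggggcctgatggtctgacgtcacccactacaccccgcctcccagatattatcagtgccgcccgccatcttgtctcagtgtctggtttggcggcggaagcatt
All 5 are minus-strand promoters, printed 5′ to 3′ along the gene. They lie at chr8:45999801-46000100 for *Ankrd37*, chr8:124949205-124949504 for *Egln1*, chr10:59951721-59952020 for *Ddit4*, chr7:138909457-138909756 for *Bnip3* and chr11:79254646-79254945 for *Wsb1*. The number of core positions was 4 for *Ankrd37*, 2 for *Egln1*, 2 for *Ddit4*, 5 for *Bnip3* and 6 for *Wsb1*, each strand counted. *Car12*, *Gbe1* and *Gys1* fell and had neither core in the promoter window, and *Ndrg1* was not matched.

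Of the 4 members that are HIF prolyl hydroxylases or histone demethylases, both of them oxygen-dependent dioxygenases, *Egln1* and *Egln3* fell and *Kdm3a* and *Kdm4b* were not called. The collagen hydroxylases among the members belong to the same enzyme class and are given with the collagen genes. *Egln1* (chr8:124908587-124949324, minus strand, GRCm38) encodes PHD2, the main prolyl hydroxylase that marks HIF alpha for destruction, and is itself a HIF target. Its level was 50.6 and 55.4 FPKM in the WT samples, whereas promoter KO gave 10.6 and 20.1 FPKM. Both promoter KO samples were far below both WT samples, and *Egln1* fell by 1.78 on the log2 scale (SE 0.27, adjusted p = 0.0389), to 29.0% of its WT mean. *Egln3* (chr12:54178981-54203860, minus strand) encodes the related hydroxylase PHD3. It measured 56.2 and 56.1 FPKM (WT) and 14.8 and 25.8 FPKM (promoter KO). The WT samples were nearly equal, the promoter KO samples were separated from them, and *Egln3* fell by 1.47 (SE 0.24, adjusted p = 0.0422). Each of these genes has 1 annotated transcript, with no near-identical copy and no overlapping exon. *Kdm3a*, a demethylase of histone H3 lysine 9, was at 23.5 and 22.7 FPKM in the WT samples, against 26.1 and 22.9 in the promoter KO samples. The genotypes of *Kdm3a* overlapped, with a log2 fold change of 0.08 (95% interval -0.18 to 0.34, adjusted p = 0.639). *Kdm4b*, another histone demethylase, was at 19.4 and 20.9 FPKM (WT), and its promoter KO samples gave 12.4 and 22.4 FPKM. Its promoter KO samples lay on either side of the WT samples, and *Kdm4b* had a log2 fold change of -0.25 with an interval from -0.88 to 0.37.

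Of the genes for growth control and transcription, 3 of 5 fell and the other 2 had adjusted p-values just above 0.05. *Ndrg1* (chr15:66929318-66969640, minus strand), a stress-induced gene of the N-myc downstream-regulated family, showed 43.4 and 47.7 FPKM (WT) and 7.12 and 14.0 FPKM (promoter KO). Its decrease of the log2 level was the largest among the members in this fit, and *Ndrg1* fell by 2.08 (SE 0.27, adjusted p = 0.0371). *Ankrd37* (chr8:45996902-46005707, minus strand) encodes a small ankyrin repeat protein. Its levels were 15.3 and 14.7 FPKM in the WT samples, against 3.56 and 4.40 in the promoter KO samples. The samples of each genotype lay close together, and *Ankrd37* fell by 1.69 with the smallest adjusted p of the members (SE 0.14, adjusted p = 0.0208). *Ddit4* (chr10:59949669-59951834, minus strand) encodes REDD1, an inhibitor of the growth kinase mTORC1, and was the most highly expressed member in WT EBs. It measured 488.8 and 465.9 FPKM (WT) and 138.6 and 232.1 FPKM (promoter KO). The groups did not overlap, and *Ddit4* fell by 1.41 (SE 0.23, adjusted p = 0.0422). Exons of *Ndrg1* and *Ankrd37* overlap genes on the opposite strand (*Gm17035* and *Gm2895*, and *Ufsp2* and *Lrp2bp*), and since the strand setting of the counting was not given, reads of the partners cannot be told apart.

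*Bhlhe40*, a transcriptional repressor linked to the circadian clock, was at 44.4 and 31.8 FPKM in the WT samples, against 14.6 and 21.1 in the promoter KO samples (log2 fold change -1.06, adjusted p = 0.0564). *Mxi1*, an antagonist of MYC, was at 12.5 and 10.8 FPKM (WT) and 6.57 and 7.93 FPKM (promoter KO), with a log2 fold change of -0.62 (adjusted p = 0.0652). For both genes the promoter KO samples lay below the WT samples, and neither passed the test.

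**Figure D2:**
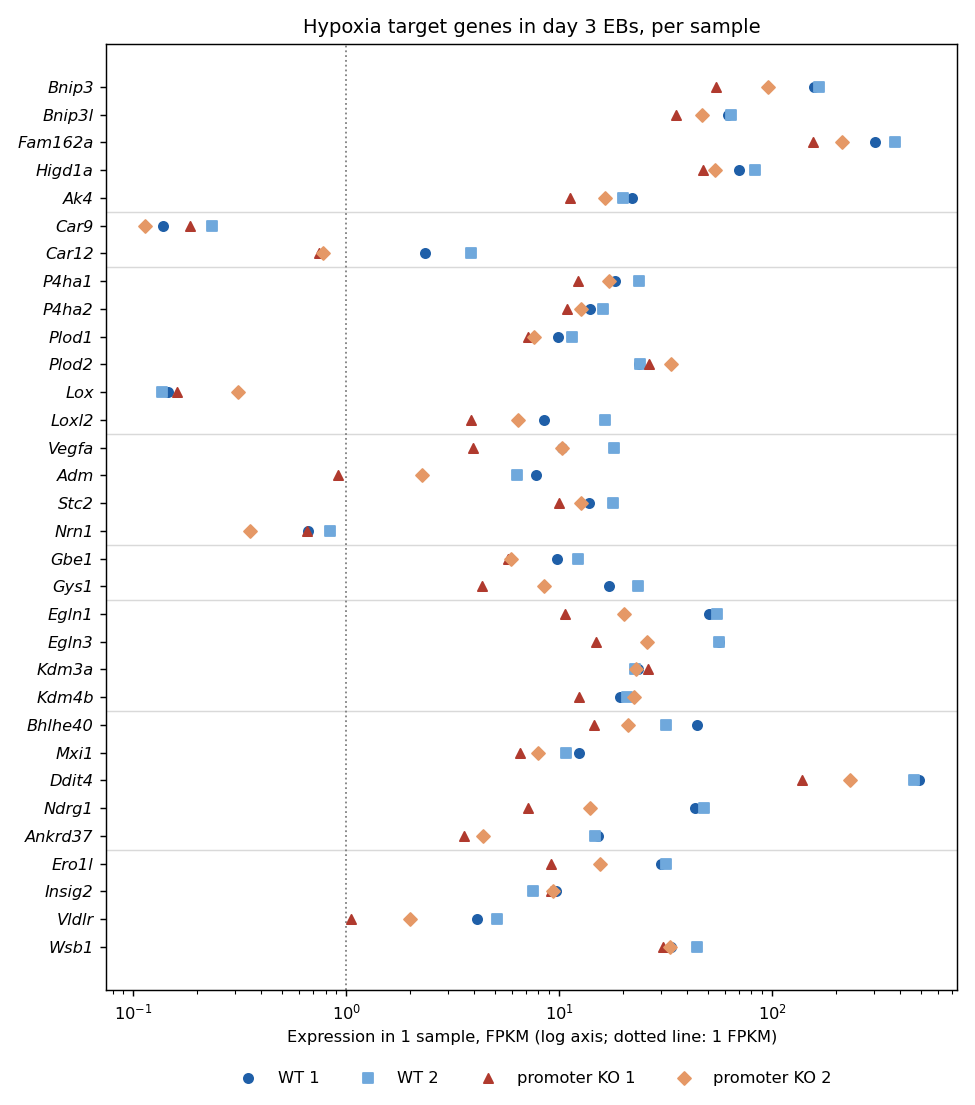
Level of each of the 32 members in each of the 4 samples, in FPKM on a log axis, with the members in the same order as in the plot of fold changes. Blue symbols are WT and red or orange symbols promoter KO samples, and the dotted line marks 1 FPKM. Promoter KO 1 (triangles) lies left of promoter KO 2 (diamonds) for 28 of the 29 tested members, and Car9, Lox and Nrn1 lie below 1 FPKM in every sample.

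Both glycogen genes among the members fell. *Gys1* (chr7:45434844-45456619, plus strand) encodes the glycogen synthase of muscle and most other tissues. It was at 17.2 and 23.4 FPKM in the WT samples, against 4.36 and 8.53 in the promoter KO samples. The lower WT sample was still above both promoter KO samples, and *Gys1* fell by 1.56 (SE 0.29, adjusted p = 0.0493). Part of *Gys1* overlaps exons of *Ruvbl2* on the opposite strand. *Gbe1* (chr16:70313949-70569716, plus strand) encodes the branching enzyme that adds side chains to glycogen. Its levels were 9.81 and 12.2 FPKM (WT) and 5.78 and 5.98 FPKM (promoter KO). The promoter KO samples were nearly equal and below both WT samples, and *Gbe1* fell by 0.80 (SE 0.14, adjusted p = 0.0482), the smallest decrease among the 10 called members. Neither *Gys1* nor *Gbe1* was called when samples were centred or quantile normalized, with the filter at a mean of 5 FPKM, or without the trend. Of 20 other glycogen genes, 16 could be tested, 2 fell and 0 rose, and the median log2 fold change was -0.17. The 2 that fell were *Pgm2*, a phosphoglucomutase (65.7 and 93.4 FPKM in the WT samples, against 23.6 and 36.4 in the promoter KO samples, log2 fold change -1.39, adjusted p = 0.0467), and *Stbd1*, a glycogen-binding protein (9.0 and 9.40 FPKM in the WT samples, against 4.07 and 5.15 in the promoter KO samples, log2 fold change -0.87, adjusted p = 0.0456).

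Among secreted factors, *Adm* fell and *Vegfa* was not called. *Adm* (chr7:110627661-110629820, plus strand) encodes adrenomedullin, a peptide that widens vessels and promotes their growth. Its level was 7.75 and 6.35 FPKM in the WT samples, whereas promoter KO gave 0.913 and 2.28 FPKM. The groups were apart, the promoter KO mean was 22.6% of the WT mean, and *Adm* fell by 1.68 (SE 0.27, adjusted p = 0.0423). Promoter KO 1 was under 1 FPKM, so *Adm* would not have passed the filter without its WT samples. *Adm* was not called with a pseudocount of 0.1 FPKM or without the trend, and was untested with the filter at a mean of 5 FPKM. *Vegfa*, the principal growth factor for blood vessels, was at 10.4 and 18.2 FPKM in the WT samples, whereas promoter KO gave 3.93 and 10.3 FPKM. Promoter KO 2 came within 0.1 FPKM of WT 1, and *Vegfa* had a log2 fold change of -0.98 with an interval from -2.02 to 0.06 (adjusted p = 0.180). Its log2 fold change was -0.38 without promoter KO 1, -1.58 without promoter KO 2 and -0.61 without WT 2. *Stc2*, the secreted glycoprotein stanniocalcin 2, was at 13.8 and 17.9 FPKM in the WT samples, against 10 and 12.7 in the promoter KO samples (log2 fold change -0.44, adjusted p = 0.151). *Nrn1*, a membrane-anchored neurite growth factor, stayed between 0.354 and 0.838 FPKM in the 4 samples and was not tested. Of 19 other angiogenesis genes, 13 could be tested, 4 fell and 0 rose, with a median of -0.46. They were the VEGF receptor *Flt1* (log2 fold change -1.13, adjusted p = 0.0371), the growth factor *Pdgfb* (-1.19, adjusted p = 0.0472), *Ramp2*, part of the adrenomedullin receptor (-0.88, adjusted p = 0.0316), and *Stc1* (-0.91, adjusted p = 0.0485). *Stc1* was at 2.14 and 1.99 FPKM (WT) and 0.490 and 0.778 FPKM (promoter KO), so it passed the filter only through its WT samples.

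The members for pH control were at low levels. *Car12* (chr9:66713686-66766845, plus strand) encodes a carbonic anhydrase at the cell surface. It was at 2.34 and 3.85 FPKM (WT) and 0.748 and 0.777 FPKM (promoter KO). Both promoter KO samples were under 1 FPKM, so *Car12* was tested only because its WT samples passed the filter, and it fell by 1.19 (SE 0.21, adjusted p = 0.0472). *Car12* was not called when samples were centred or quantile normalized, or without the trend. With a pseudocount of 0.1 FPKM its log2 fold change was -1.85. *Car9*, the related enzyme often used as a marker of hypoxia, lay between 0.114 and 0.233 FPKM in the 4 samples, which at the depth estimated for 200-base fragments amounts to 4.19 to 9.41 fragments, and was not tested. Of 12 other pH genes, 11 could be tested, and *Bsg*, the chaperone of lactate transporters, fell (log2 fold change -0.53, adjusted p = 0.0488) while 0 rose. The median over those 11 genes was -0.31.

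The genes that act at mitochondria all lay lower in promoter KO samples, and none passed the test. In all 5 the genotypes did not overlap, with the WT samples on top (32.4% of all tested genes). Each was lower at an unadjusted p under 0.05 (15.6% of all tested genes), with adjusted p-values from 0.0519 to 0.101. The log2 fold changes of *Bnip3*, *Bnip3l*, *Fam162a* and *Ak4* depended on which promoter KO sample was left out. They were -1.55, -0.82, -1.12 and -0.84 without promoter KO 2. Without promoter KO 1 they were -0.75, -0.41, -0.67 and -0.33. *Fam162a*, a mitochondrial protein induced by hypoxia, was at 305.2 and 379.4 FPKM in the WT samples, against 156.5 and 214.0 in the promoter KO samples (log2 fold change -0.89, SE 0.17). *Bnip3*, a mitophagy receptor on the outer mitochondrial membrane, was at 158.2 and 165.7 FPKM (WT) and 54.7 and 95.7 FPKM (promoter KO), with a log2 fold change of -1.15 (SE 0.24, adjusted p = 0.0575). *Bnip3l* encodes NIX, the sister receptor. It was at 62.3 and 63.9 FPKM in the WT samples, against 35.2 and 47.1 in the promoter KO samples (log2 fold change -0.62). *Higd1a*, which acts on respiratory chain complexes, was at 70.2 and 83.3 FPKM (WT) and 47.2 and 53.8 FPKM (promoter KO), with a log2 fold change of -0.59. *Ak4*, an adenylate kinase of the mitochondrial matrix, was at 21.9 and 20.01 FPKM in the WT samples, against 11.2 and 16.4 in the promoter KO samples (log2 fold change -0.59). *Bnip3*, *Bnip3l*, *Higd1a* and *Ak4* have near-identical copies elsewhere in the annotation, 4 for *Bnip3* and 1 for each of the others, so their values are uncertain. Exons of *Bnip3*, *Fam162a* and *Higd1a*, and among the other members those of *Bhlhe40*, *Mxi1*, *Car9* and *Nrn1*, overlap genes on the opposite strand. Of 16 other mitophagy genes, 14 could be tested, and *Map1lc3a*, an LC3 protein of autophagosomes, fell (log2 fold change -0.69, adjusted p = 0.0460) while 0 rose. The median of those 14 genes was -0.02, close to that of all genes.

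Of the 5 tested collagen-modifying members, 4 lay lower in promoter KO samples and 1, *Plod2*, lay higher, and none passed the test. *P4ha1* and *P4ha2* encode catalytic subunits of collagen prolyl 4-hydroxylase. *P4ha1* was at 18.4 and 23.8 FPKM (WT) and 12.3 and 17.2 FPKM (promoter KO), with a log2 fold change of -0.50 (adjusted p = 0.151). *P4ha2* was at 14.0 and 16 FPKM in the WT samples, against 10.9 and 12.6 in the promoter KO samples (log2 fold change -0.33, adjusted p = 0.155). Both had an unadjusted p under 0.05, as had the lysyl hydroxylase *Plod1* and the lysyl oxidase *Loxl2* (15.6% of all tested genes were lower at that threshold). *Plod1* was at 9.91 and 11.5 FPKM (WT) and 7.13 and 7.58 FPKM (promoter KO), with a log2 fold change of -0.48 (adjusted p = 0.0783). *Loxl2*, which crosslinks collagen, was at 8.53 and 16.3 FPKM in the WT samples, against 3.85 and 6.40 in the promoter KO samples (log2 fold change -1.10, adjusted p = 0.0945). *Plod2*, the lysyl hydroxylase of collagen ends, had its promoter KO samples on top, at 23.7 and 24.0 FPKM (WT) and 26.5 and 33.4 FPKM (promoter KO). Its log2 fold change was 0.31 (95% interval -0.01 to 0.62, adjusted p = 0.172), so the separation of its samples was not called. *Lox* lay between 0.137 and 0.310 FPKM and was not tested. *P4ha2* has 1 near-identical copy elsewhere and *Loxl2* has 4, and *Plod2* and *Lox* each overlap an opposite-strand gene. *Loxl2* overlaps *Gm27177* on the opposite strand and *Mir6950* on its own strand. Of 15 other collagen-modifying genes, 11 could be tested, 0 fell and 1 rose, *Crtap*, a part of the prolyl 3-hydroxylation complex (log2 fold change 0.80, adjusted p = 0.0305). At an unadjusted p under 0.05, 0 were lower and 1 was higher, and the median was 0.11.

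The remaining members act in the endoplasmic reticulum, in lipid uptake and in ubiquitination. *Ero1l* (chr14:45283087-45318771, minus strand) encodes the oxidase that re-oxidises protein disulfide isomerase. It was at 29.9 and 31.8 FPKM in the WT samples, against 9.14 and 15.6 in the promoter KO samples. The genotypes did not overlap, and *Ero1l* fell by 1.30 (SE 0.23, adjusted p = 0.0472). *Ero1l* was not called with a pseudocount of 0.1 FPKM, with the filter at a mean of 5 FPKM, when centred, or without the trend. *Vldlr*, a receptor for lipoproteins, was at 4.14 and 5.10 FPKM (WT) and 1.06 and 1.99 FPKM (promoter KO). It missed the threshold narrowly, with a log2 fold change of -1.17 and an adjusted p of 0.0503. *Wsb1*, a substrate adaptor of a ubiquitin ligase, was at 33.6 and 44.4 FPKM in the WT samples, against 30.9 and 33.4 in the promoter KO samples (log2 fold change -0.26, interval -0.62 to 0.09). The value for *Wsb1* was -0.065 without WT 2 and -0.46 without WT 1. *Insig2*, which holds back sterol regulatory proteins, was at 9.65 and 7.58 FPKM (WT) and 9.12 and 9.34 FPKM (promoter KO). Its genotypes overlapped, with a log2 fold change of 0.10 and an interval from -0.26 to 0.46.

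**Figure D3:**
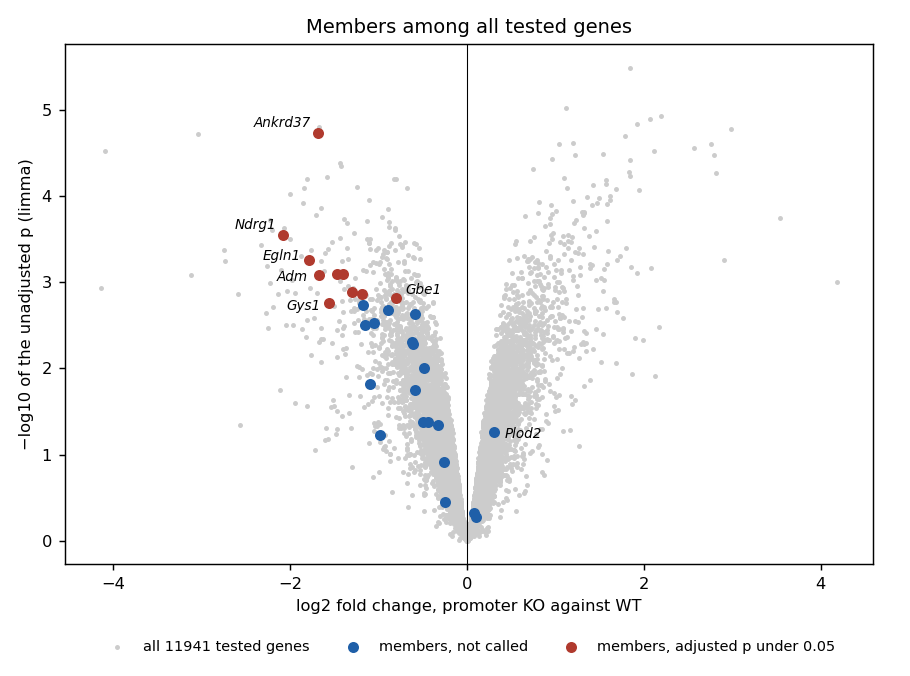
Log2 fold change in promoter KO against WT EBs (horizontal axis) and -log10 of the unadjusted p from limma (vertical axis) for all 11941 tested genes in grey, with the 10 called members in red and the other 19 tested members in blue. The members lie mostly on the left side, with Ankrd37 highest and Ndrg1 farthest left among them, and 3 members lie right of 0.

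Between the threshold of 0.05 and 0.1 stood 9 members, with adjusted p-values of 0.0503 to 0.0945 and negative log2 fold changes from -1.17 to -0.48. They were *Vldlr*, *Fam162a*, *Higd1a*, *Bhlhe40*, *Bnip3*, *Bnip3l*, *Mxi1*, *Plod1* and *Loxl2*. The 10 uncalled members that remained were *Ak4*, *P4ha1*, *P4ha2*, *Stc2*, *Plod2*, *Vegfa*, *Wsb1*, *Kdm4b*, *Kdm3a* and *Insig2*.

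Next, the members were set beside related genes. Of 20 HIF targets within glycolysis, 20 could be tested, 6 fell (*Aldoa*, *Aldoc*, *Ldha*, *Pfkl*, *Pgk1* and *Tpi1*) and 0 rose, with a median of -0.48 where the 29 members had -0.89. Lists differ in length and expression, and the difference between the medians was not tested. Of 15 genes for HIF subunits and their regulators, 0 fell and 1 rose (limma), while 2 were lower and 2 higher at an unadjusted p under 0.05, and the median was 0.04. The gene that rose was *Epas1*, which encodes HIF-2 alpha, at 0.746 and 0.569 FPKM in the WT samples, against 5.47 and 5.06 in the promoter KO samples (log2 fold change 1.92, adjusted p = 0.0208). Both WT samples were under 1 FPKM, so *Epas1* was tested only because its promoter KO samples passed the filter. *Hif1a*, which encodes HIF-1 alpha, was at 29.8 and 24.5 FPKM (WT) and 32.4 and 32.5 FPKM (promoter KO), with a log2 fold change of 0.25 (adjusted p = 0.204). *Hif3a*, which encodes HIF-3 alpha, lay the other way, at 4.85 and 4.42 FPKM (WT) and 2.27 and 2.78 FPKM (promoter KO). Its log2 fold change was -0.68 (adjusted p = 0.0613), so it was not called. Over the list, 7 genes had negative and 8 positive log2 fold changes. Without WT 2 and without promoter KO 1 no gene of the whole table was called, the genes of these lists included. HIF protein was not measured in these data.

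**Figure D4:**
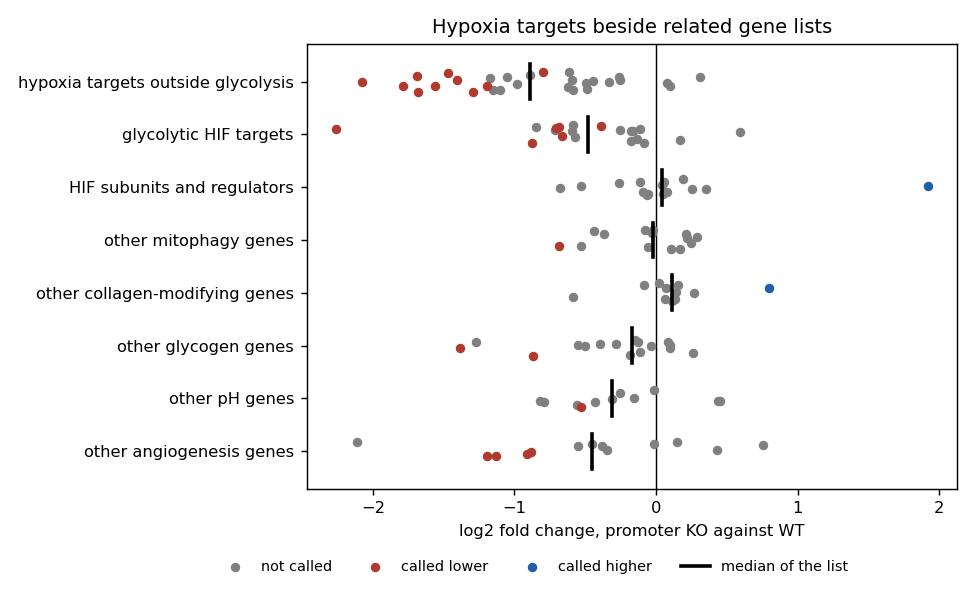
Log2 fold change of each tested gene in promoter KO against WT EBs, for the hypoxia targets outside glycolysis and 7 related lists. Red points were called lower, blue points higher and grey points neither, and black bars are the medians, from -0.89 for the hypoxia targets outside glycolysis to 0.11 for the other collagen-modifying genes. Vertical scatter within a list has no meaning.

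The promoter KO samples differed in how far the members lay from WT. The median difference of the 29 members from the WT mean was -1.12 on the log2 scale for promoter KO 1 and -0.67 for promoter KO 2, against -0.01 and 0.01 over all tested genes. Promoter KO 1 was below promoter KO 2 for 28 of the 29 members (96.6%, against 53.5% of all tested genes), and *Kdm3a* was the exception. WT 1 was below WT 2 for 20 of the 29 members (69.0%, against 49.1%). Of the called members, *Ankrd37*, *Gbe1* and *Car12* were nearly as low in promoter KO 2 as in promoter KO 1. Some uncalled members, such as *Plod1* and *Wsb1*, had close values as well. Over the 29 members, the gap between these samples was widest for *Vegfa*, followed by *Ndrg1* and *Egln1*. No test compares the samples within a genotype.

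**Figure D5:**
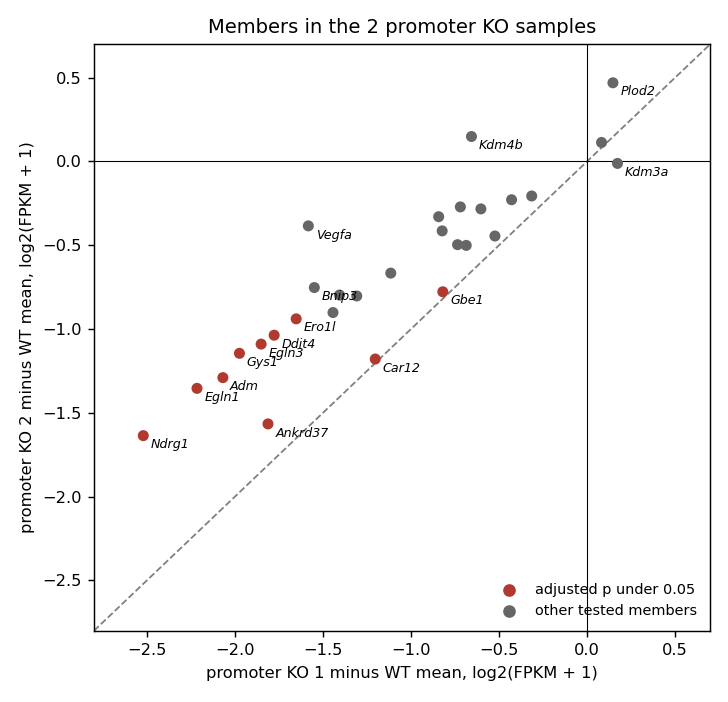
Difference of each tested member from the WT mean in promoter KO 1 (horizontal axis) and promoter KO 2 (vertical axis), both on log2(FPKM + 1). The dashed line marks equal values, and 28 of the 29 points lie above it, with Kdm3a below. Gbe1, Car12 and Insig2 (not labelled) lie next to it. The 10 called members, in red, lie below 0 in both samples.

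Markers of cell types differed between the genotypes too. The labels name the cells as mesendoderm derived from mESCs. In all 10 mesendoderm markers the genotypes did not overlap and promoter KO was the lower one (32.4% of all tested genes). Of these markers 6 were called lower (0 higher), their median log2 fold change was -2.26, and their summed level was 803.4 and 1041 FPKM in the WT samples, against 158.5 and 329.8 in the promoter KO samples. Pluripotency markers summed to 2429 and 2193 FPKM (WT) and 3019 and 2754 FPKM (promoter KO), with 1 of 10 called lower and 1 higher. Of 18 tested extraembryonic endoderm markers 10 were called higher and 1 lower, *Sox7* and *Cubn* among the 10 having passed the filter only through their promoter KO samples, and the list of 19, which shares *Gata6* and *Sox17* with the mesendoderm list, summed to 806.8 and 838.5 FPKM in the WT samples, against 1147 and 1349 in the promoter KO samples. Endothelial and blood markers summed to 35.9 and 59.0 FPKM (WT) and 22.3 and 17.0 FPKM (promoter KO), with 2 of 5 tested called lower. Neuroectoderm and fibroblast markers had 0 called in either direction (limma). At an unadjusted p under 0.05, 1 of 2 and 2 of 3 tested were lower (15.6% of all tested genes). The fibroblast markers *Lum* and *Postn* were listed at 0 in all samples. The 2 fibroblast markers that were lower passed the filter only through their WT samples. The summed level of the members, 1586 and 1702 FPKM in the WT samples, against 676.9 and 976.7 in the promoter KO samples, had an order of samples that the sums of the mesendoderm markers, the glycolytic HIF targets and the other glycogen, pH and angiogenesis genes had as well.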

How the data were processed

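RNA was sequenced from day 3 EBs, 2 WT and 2 promoter KO samples. The authors deposited 1 table of gene values per sample, taken here as FPKM because Cufflinks made them, although the tables name no unit and the study's methods call it RPKM. The submitters' processing notes name HISAT2 2.1.0, Cufflinks, Cuffnorm and mm10, while the methods name TopHat, and the strand setting is not given in the sources used here. The files hold 24347 gene rows, of which 27 have date-like symbols and 2 symbols are listed more than once. Library size and length were thus already normalized.

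Genes that reached 1 FPKM in 2 or more samples (11941) were tested on log2(FPKM + 1) with limma 3.58.1 in R 4.3.3 (eBayes with an intensity trend, 3.99 prior degrees of freedom) for genotype alone, with Benjamini-Hochberg adjustment over all of them and a call at an adjusted p under 0.05. The procedure was tested on simulated data. All 32 members are named, as are called genes of the related lists, and marker lists are given by counts and sums. *Hif1a* and *Hif3a* were named after their values were seen, beside *Epas1*, and so were *Lum* and *Postn*. The members and lists were chosen with earlier results of these data known.

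Coordinates come from GENCODE M21 (GRCm38), and promoters from RefSeq. Near-identical copies share at least 95% identity over at least 200 bases with another gene (BLAST 2.17.0). Depth was estimated from the FPKM that 1 fragment gives in genes with a single transcript, assuming fragments of 200 bases, and fragments per gene use the longest transcript. Alternatives were a replicate block, a pseudocount of 0.1, other filters, limma without the trend, centring, quantile normalization, a fold rule and each sample left out. Python 3.11.15, numpy 2.4.6, pandas 2.3.3 and matplotlib 3.10.9 were used.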

Additional observations from a re-analysis of the deposited data

How the results depend on the processing

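Under every alternative run, the 10 members called lower kept a negative log2 fold change wherever they could be tested, and no member was called higher. The number of members called lower was 10 as reported, 19 with a replicate block, 7 with a pseudocount of 0.1 FPKM, 5 with a filter at a mean of 5 FPKM, 1 without the trend, 6 with each sample centred on its median, 7 with quantile normalization and 13 with the fold rule (a fold change below 0.5 and an unadjusted p under 0.05). With no filter beyond a value above 0, limma called 0 members and 0 genes (18215 genes tested, of which 1982 genes, 20 members among them, were lower at an unadjusted p under 0.05). Genes called lower and higher over the whole table, 226 and 201 as reported, numbered 667 and 535 with the replicate block, 108 and 95 with the filter at a mean of 5 FPKM, 27 and 55 without the trend, and 126 and 157 when centred, where more genes were called higher than lower. They numbered 174 and 174 with the pseudocount of 0.1 FPKM, and 169 and 165 with quantile normalization. Of the 10 members, the calls lost were those of *Gys1*, *Adm* and *Ero1l* with the pseudocount of 0.1, *Gys1*, *Gbe1* and *Ero1l* with the filter at a mean of 5 FPKM (which also left *Adm* and *Car12* untested), *Gys1*, *Gbe1*, *Car12* and *Ero1l* when centred, *Gys1*, *Gbe1* and *Car12* with quantile normalization, and all but *Ankrd37* without the trend. The replicate block added calls for *Bhlhe40*, *Bnip3*, *Bnip3l*, *Fam162a*, *Higd1a*, *Loxl2*, *P4ha1*, *Vegfa* and *Vldlr*, with adjusted p-values between 0.00817 and 0.0495. With each sample left out in turn, and the lone sample of its genotype assumed to vary like the others, between 0 and 13 members and between 0 and 248 genes were called lower and between 0 and 238 genes higher. The count was 0 without WT 2 (18 members and 976 genes lower at an unadjusted p under 0.05) and without promoter KO 1 (18 members and 1043 genes lower). The median of the tested members stayed between -1.12 and -0.67 in these fits. Values near 0 changed sign when 1 sample was left out, with *Kdm3a* at -0.012 and *Kdm4b* at 0.15 without promoter KO 1 and *Insig2* at -0.059 without WT 2. Their ranges over the left-out samples were -0.012 to 0.17 for *Kdm3a*, -0.66 to 0.15 for *Kdm4b* and -0.059 to 0.25 for *Insig2*. Of the other uncalled members, *Vegfa* was at -0.38, *Bnip3* at -0.75, *Ak4* at -0.33, *P4ha1* at -0.27, *Stc2* at -0.28 and *Plod2* at 0.47 without promoter KO 1, *Vegfa* at -1.58 and *Plod2* at 0.15 without promoter KO 2, *Loxl2* at -0.67, *Vegfa* at -0.61, *P4ha1* at -0.32, *Stc2* at -0.27 and *Wsb1* at -0.065 without WT 2, and *Wsb1* at -0.46 without WT 1. The cause of these shifts was not tested. Members with samples on separate sides numbered 26 as reported (25 with promoter KO lower and 1 higher), 24 when centred and 25 with quantile normalization. Over all tested genes as reported, promoter KO was the lower one in 32.4% and the higher one in 32.9%. No such share is given for centring or quantile normalization. The replicate numbers were not taken to pair the samples, since the labels name no pairing and deviations of same-numbered samples correlated at 0.03 over all tested genes and 0.135 over the tested members (across genes, which are not independent). With 2 samples of each genotype, the spread rests largely on what limma borrows across genes, and *Car9*, *Lox* and *Nrn1* were not tested.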
